A study of Mus musculus with 16 samples.

Results

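The response of microglia to the 5xFAD transgenes was measured in mice labelled as lacking Card9, by comparing 4 Card9-/-5xFAD libraries with 4 Card9-/- libraries. These 8 libraries were chosen by their sample labels and their columns in the count table, from 16 libraries in all. Every gene of the table was considered in both directions, and 14513 genes had enough counts to be tested. Each library held RNA of cells sorted with magnetic beads for CD11b, an integrin chain on microglia and other myeloid cells. The brains were freed of meninges and choroid plexus. The authors name female 5xFAD mice among those obtained for the crosses, and their text gives no sex for the mice sequenced. The mice were 20 wk old. Card9-/- mice carry a deletion of Card9 from birth in all cells, without the transgenes. Card9-/-5xFAD mice carry the same deletion and the 5xFAD transgenes, human transgenes that drive Aβ production under a promoter active in neurons. The other 8 libraries, 4 from wild-type (WT) mice and 4 from 5xFAD mice with Card9 intact, were used here for the spread between libraries and for 1 comparison of the responses. The labels do not say whether a library is 1 animal, so p-values measure the spread between these libraries.

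Microglia are the resident macrophages of the brain. Where amyloid beta (Aβ) plaques form, microglia around them are known to lower genes of the resting state and to raise a set of genes for lipid handling, lysosomes, phagocytosis and growth factors, a state named disease-associated microglia (DAM). Trem2, a surface receptor for lipids, is needed for much of that change, and CARD9 is an adaptor that carries signals of C-type lectin and related receptors through SYK to BCL10, MALT1 and NF-κB. The question here was which genes differ with the transgenes when CARD9 is deleted.

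Between 3229322 and 19333325 reads per library were counted on genes in Card9-/-, and between 2970148 and 10408110 in Card9-/-5xFAD. Replicate 4 was the shallowest library of each group, and both replicate 4 libraries stood apart. In a principal component analysis of the 8 libraries they lay at 68.7 and 50.5 on the component that held 70.7% of the variance, with the others between -35.2 and 7.24. The next component held 18.9% of the variance and separated the groups, with Card9-/- between 18.4 and 18.8 and Card9-/-5xFAD between -24.1 and -12.4. Microglia markers summed to 22334 to 36030 CPM (counts scaled to library size) in Card9-/- and 30062 to 34124 in Card9-/-5xFAD. Replicate 4 of Card9-/- held more counts of neutrophil markers (summed 6530 CPM against 1613 to 1710 in its group) and choroid plexus markers (3049 against 96.3 to 306). Replicate 4 of Card9-/-5xFAD also held more neutrophil markers (6288 CPM against 738 to 1440).

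Card9 itself was measured in every library. It lies on mouse chromosome 2 at 26352176 to 26360918 on the minus strand (GRCm38) and overlaps the annotated gene Gm13562. Its level was 31.6, 34.8, 33.2 and 16.7 CPM in the Card9-/- libraries and 26.6, 33.7, 9.73 and 10.8 CPM in the Card9-/-5xFAD libraries. The groups overlapped, with a log2 fold change of -0.52 (SE 0.45, FDR 0.71, edgeR). Card9 averaged 36.9 ± 16.3 CPM in WT and 27.7 ± 8.28 CPM in 5xFAD (SD, n = 4 each), so reads on this gene were counted in the libraries labelled Card9-deficient at levels that overlap those with Card9 intact. Which exons the deletion removes is not given in the sources used here and gene counts do not show where in the gene reads fell, so the Card9 count does not check the labels. The genotype names below are those of the labels.

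In all, 286 genes were called (1.97% of 14513 tested), of which 216 rose (1.49%) and 70 fell (0.482%), at a false discovery rate (FDR) under 0.1 in edgeR's quasi-likelihood test. The genes that rose were led by Baiap2l2, a membrane-bending protein, the cystatin Cst7, lipoprotein lipase Lpl and the sulfotransferase Chst2, and those that fell by the transmembrane protein Tmem44 and the potassium channel subunit Kcne3. Of the risers 52 averaged under 1 CPM in Card9-/- (24.1%), as did 435 of all tested genes, and of the fallers 20 averaged under 1 CPM in Card9-/-5xFAD (28.6%), as did 690 of all tested genes. With the replicate numbers as a block within each Card9 genotype, 2966 genes were called (11.2% of those tested higher and 9.19% lower), which included all 286 in the same direction and added 1416 higher and 1264 lower. Below, "the block" is this fit, and counts with it are given beside those without it. It was chosen after the data were seen, from correlations between these same libraries, and the labels do not give the pairing. Its counts are therefore descriptions that rest on that pairing. With the replicate number as one term over all libraries, 252 genes were higher and 88 lower. Without both replicate 4 libraries 519 genes were called (2.3% higher and 1.25% lower), and these included 253 of the 286. The median log2 fold change of all tested genes was -0.15, which is the level against which list medians are read below. Counts of list members are read against the shares of all tested genes, 1.49% and 0.482% without the block and 11.2% and 9.19% with it. The lists and their members were chosen with earlier results of these data known, so their shares describe them and are not a test. Without the block the share of tested members that rose was 68.4% for genes of disease-associated microglia, 21.1% for lipid genes, 17.9% for checkpoint genes, 15.8% for chemokines and cytokines, 3.70% for ribosomal proteins and 2.56% for homeostatic genes.

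**Figure D1:**
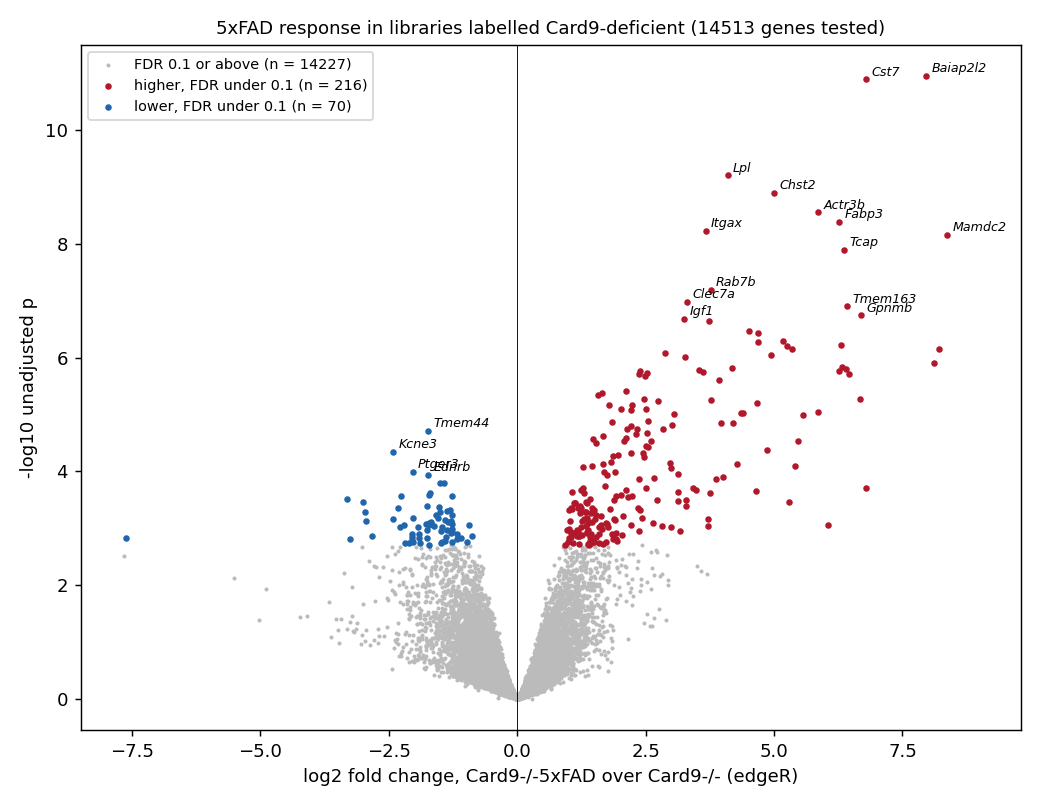
Log2 fold change of each of the 14513 tested genes (Card9-/-5xFAD over Card9-/-) against the -log10 of its unadjusted p in edgeR. Red points are the 216 genes that rose and blue points the 70 that fell at an FDR under 0.1, and the leading genes of each direction are named. The strongest risers reach a log2 fold change of about 8, where fitted values of genes with almost no counts in Card9-/- depend on the prior count.

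The group ranges did not overlap for 513 genes that were higher in every Card9-/-5xFAD library (3.53% of those tested) and for 505 that were lower in every one (3.48%). Among the genes called, 200 of the 216 risers and 62 of the 70 fallers had ranges apart. Protein-coding genes made up 198 of the risers (91.7%) and 61 of the fallers (87.1%), beside 11601 of all genes tested (79.9%).

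Baiap2l2 (chromosome 15, 79258195 to 79285537, minus strand) encodes a protein that shapes the plasma membrane with actin. It stood at 0.12, 0.124, 0.356 and 0 CPM in the Card9-/- libraries and at 62.2, 60.4, 47.8 and 30.4 CPM in the Card9-/-5xFAD libraries. It was close to 0 in every library without the transgenes and far above 0 in every library with them, and its log2 fold change was 7.97 (SE 0.47, FDR 9.36e-08). Cst7 (chromosome 2, 150570415 to 150578944, plus strand) encodes cystatin F, an inhibitor of lysosomal cysteine proteases. Its level was 22.6, 15.7, 21.8 and 24.5 CPM without the transgenes and 2406, 2005, 3269 and 1616 CPM with them, a log2 fold change of 6.78 (SE 0.41, FDR 9.36e-08). Both groups of Cst7 values were narrow and they lay far apart.

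Tmem44 (chromosome 16, 30511855 to 30550842, minus strand) was the faller of lowest FDR. It stood at 39.3, 35.4, 46.4 and 33.7 CPM in Card9-/- and 12.7, 10.6, 9.04 and 14.02 CPM in Card9-/-5xFAD, with a log2 fold change of -1.74 (SE 0.29, FDR 0.00421). Every Card9-/-5xFAD library lay below every Card9-/- library. Kcne3 (chromosome 7, 100176502 to 100184869, plus strand), an accessory subunit of voltage-gated potassium channels, stood at 3.12, 1.53, 3.20 and 2.62 CPM in Card9-/- and 0.493, 0.456, 0.521 and 0.400 CPM in Card9-/-5xFAD, and its log2 fold change was -2.42 (SE 0.44, FDR 0.00813). It overlaps Gm34821, so its reads are uncertain where the counting could not tell the genes apart.

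The sequence before a start of transcription in the RefSeq table (GRCm38.p6) is shown for the leading riser and fallers that have an entry there. Cst7 is among the risers of lowest FDR, and Tmem44 and Kcne3 are the fallers of lowest FDR. Each run is the 250 bases before a start, 5′ to 3′ on the gene's strand, and capitals mark a match to 1 of 6 short motifs: the E-box CACGTG, its extended form in the lysosomal CLEAR element, which is TCACGTG, the AP-1 motif TGANTCA, the PU.1 motif GAGGAAG, the D-box core TTANGTA and the TATA box TATAAA, on either strand. Every match of the extended form is also a match of the E-box. Gene positions above come from another annotation, GENCODE, whose starts differ from RefSeq's for Tmem44 and Kcne3. The Tmem44 run and the second Kcne3 run lie inside the gene spans given above, as does most of the first Kcne3 run.
Cst7, chr2:150570165-150570414, plus strand: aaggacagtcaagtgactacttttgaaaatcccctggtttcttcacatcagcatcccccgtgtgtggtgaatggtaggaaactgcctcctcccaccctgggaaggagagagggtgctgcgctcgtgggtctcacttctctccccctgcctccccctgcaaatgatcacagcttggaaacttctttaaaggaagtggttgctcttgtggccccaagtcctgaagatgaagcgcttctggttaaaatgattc
Tmem44, chr16:30550579-30550828, minus strand: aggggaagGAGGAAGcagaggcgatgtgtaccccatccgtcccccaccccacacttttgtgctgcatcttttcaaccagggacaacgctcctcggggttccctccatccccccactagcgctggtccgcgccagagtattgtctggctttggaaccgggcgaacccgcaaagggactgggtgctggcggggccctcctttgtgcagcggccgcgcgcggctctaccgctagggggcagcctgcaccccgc
Kcne3, start 1, chr7:100176420-100176669, plus strand: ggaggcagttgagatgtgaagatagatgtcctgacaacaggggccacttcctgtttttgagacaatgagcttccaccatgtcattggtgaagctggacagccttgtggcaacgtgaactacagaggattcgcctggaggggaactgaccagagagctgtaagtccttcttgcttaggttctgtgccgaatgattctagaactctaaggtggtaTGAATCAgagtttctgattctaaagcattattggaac
Kcne3, start 2, chr7:100178433-100178682, plus strand: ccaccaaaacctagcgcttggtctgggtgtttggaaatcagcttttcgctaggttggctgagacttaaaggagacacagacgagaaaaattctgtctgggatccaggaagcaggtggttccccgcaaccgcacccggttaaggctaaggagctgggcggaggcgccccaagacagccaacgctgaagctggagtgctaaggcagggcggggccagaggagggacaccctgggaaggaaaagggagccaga

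A PU.1 motif began at position -242 of the Tmem44 run and an AP-1 motif at position -37 of the first Kcne3 run, while the other runs held none of the 6 motifs. Entries matched 164 of the 216 risers, with 214 starts, and 49 of the 70 fallers, with 58 starts. The PU.1 motif was in 14.5% of the risers' starts, 17.2% of the fallers' and 11.2% of the 12794 starts of all tested genes. The E-box was in 8.41%, 6.90% and 8.30%, TCACGTG in 2.80%, 6.90% and 4.89%, and the AP-1 motif in 5.14%, 5.17% and 4.47% of the same sets. The D-box core was in 4.67%, 3.45% and 3.95%, and the TATA box in 9.81%, 10.3% and 6.93%. These shares describe letters in a window, and none was tested.

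The other risers of lowest FDR were lipid genes, surface proteins, an enzyme, growth factors and less known genes. Lpl, which releases fatty acids from lipoproteins, stood at 65.4, 51.7, 62.6 and 41.9 CPM in Card9-/- and at 1090, 1071, 1076 and 561 CPM in Card9-/-5xFAD. Replicate 4 was the lowest library of both groups, and its value with the transgenes was still above all 4 without them (log2 fold change 4.10, SE 0.32, FDR 3.00e-06). Fabp3, a carrier of fatty acids, stood at 0.721, 0.414, 0.830 and 2.29 CPM against 56.9, 53.5, 86.7 and 74.9 CPM (log2 fold change 6.26, SE 0.55), and overlaps Gm10570 and Zcchc17. Fabp3 was near 0 in every library without the transgenes and far higher in every library with them. Chst2, which adds sulfate to carbohydrate chains, averaged 1.29 ± 0.528 CPM and 42.4 ± 19 CPM (SD, n = 4 each) in the same order.

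Itgax, the CD11c integrin chain, stood at 9.61, 10.5, 8.12 and 9.16 CPM in Card9-/- and 167, 148, 78.7 and 82.1 CPM in Card9-/-5xFAD, with a log2 fold change of 3.67 (SE 0.33). Replicates 1 and 2 were above replicates 3 and 4 among the Card9-/-5xFAD libraries, and the groups were apart. Clec7a, which encodes the β-glucan receptor Dectin-1 and is a receptor upstream of CARD9, averaged 63.2 ± 18.2 CPM and 629 ± 246 CPM (SD, n = 4 each), a log2 fold change of 3.31 (SE 0.37). Gpnmb, a membrane glycoprotein of lysosome-rich phagocytes, stood at 0.480, 1.03, 0.830 and 0.981 CPM against 130, 122, 72.8 and 23.6 CPM (log2 fold change 6.69, SE 0.77). Its lowest library with the transgenes, replicate 4, was still far above its highest without them.

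Igf1, a secreted growth factor, averaged 52.9 ± 26.8 CPM and 502 ± 161 CPM (SD, n = 4 each), a log2 fold change of 3.25 (SE 0.38), with replicate 4 the highest library of both groups. Rab7b, a small GTPase of late endosomes, averaged 9.34 ± 4.03 CPM and 130 ± 43.8 CPM in the same order (log2 fold change 3.77, SE 0.40). Actr3b, a subunit of the actin-branching Arp2/3 complex, averaged 0.647 ± 0.239 CPM and 34.6 ± 15.6 CPM (log2 fold change 5.86, SE 0.50). Tcap, known as a sarcomere protein, averaged 1.32 ± 1.14 CPM and 94.6 ± 65.1 CPM (log2 fold change 6.36, SE 0.61), and the noncoding gene A930002C04Rik 0.345 ± 0.188 CPM and 5.13 ± 0.510 CPM (log2 fold change 3.73, SE 0.44).

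Several risers had almost no reads without the transgenes. Mamdc2 had counts of 1, 2, 0 and 1 in the Card9-/- libraries and levels of 48.3, 49.3, 17.7 and 10.01 CPM in the Card9-/-5xFAD libraries. Tmem163, a zinc transporter that overlaps Mgat5, had counts of 3, 2, 0 and 0 in Card9-/- and stood at 18.5, 9.81, 6.08 and 5.61 CPM in Card9-/-5xFAD. All Card9-/-5xFAD libraries were above all Card9-/- libraries for both genes, and fitted folds are not bounds where one group is this close to 0. Yipf7 and Asb11 had 0 counts in all 4 Card9-/- libraries, and with 3 counts per library as the floor they were at least 10.1-fold and at least 9.34-fold higher with the transgenes. Gm44026, a noncoding gene, was also at 0 counts in Card9-/- and at least 4.16-fold higher. In all, 13 risers and 2 fallers had 3 or fewer counts in each library of the low group, and such genes passed the filter on low counts through the group where they are high. Lox, a collagen cross-linking enzyme that overlaps AC161119.1, averaged 0.157 ± 0.161 CPM and 16.2 ± 14 CPM, with replicates 1 and 2 (30.3 and 26.1 CPM) above replicates 3 and 4 (3.82 and 4.41 CPM) in Card9-/-5xFAD. Dpys, an enzyme of pyrimidine breakdown, averaged 0.151 ± 0.156 CPM and 14.1 ± 13.8 CPM (SD, n = 4 each).

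**Figure D2:**
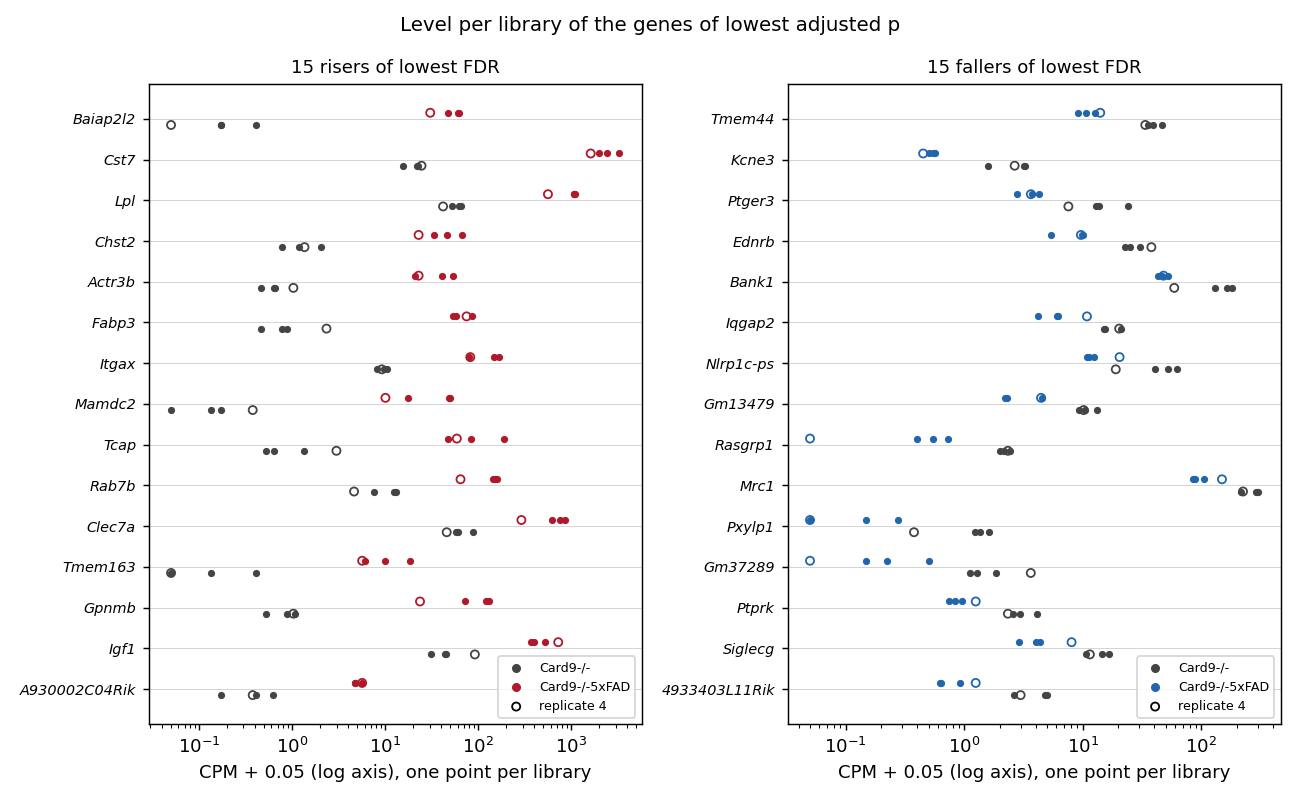
CPM of each library, plus 0.05 so that libraries at 0 can be drawn on the log axis, for the 15 risers (left) and 15 fallers (right) of lowest FDR. Grey points are the 4 Card9-/- libraries, colored points the 4 Card9-/-5xFAD libraries, and open circles the replicate 4 libraries. The groups of every riser shown are apart, and among the fallers those of Nlrp1c-ps overlap because of its replicate 4 libraries.

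The fallers of lowest FDR were receptors, signaling proteins and noncoding genes. Ptger3, a receptor for prostaglandin E2, stood at 12.8, 13.6, 23.9 and 7.52 CPM in Card9-/- and 2.76, 4.22, 3.65 and 3.60 CPM in Card9-/-5xFAD (log2 fold change -2.03, SE 0.40, FDR 0.0156). The groups did not overlap, although replicate 4 of Card9-/- lay closest to the other group. Ednrb, an endothelin receptor, stood at 24.9, 30.6, 22.8 and 37.9 CPM against 5.33, 9.81, 10.1 and 9.61 CPM (log2 fold change -1.74, SE 0.34, FDR 0.0169). Replicate 1 was the lowest Ednrb library with the transgenes, and replicate 4 the highest without them. Bank1, a scaffold of B cell receptor signaling that is also read in myeloid cells, averaged 135 ± 54.5 CPM and 47.5 ± 4.06 CPM, and Iqgap2, a scaffold of the actin cytoskeleton, 17.9 ± 3.16 CPM and 6.79 ± 2.83 CPM (SD, n = 4 each).

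Mrc1, the mannose receptor CD206 and a marker of border-associated macrophages, stood at 216, 302, 290 and 225 CPM in Card9-/- and at 87.9, 105, 84.6 and 150 CPM in Card9-/-5xFAD (log2 fold change -1.28, SE 0.28, FDR 0.0313). Each Card9-/-5xFAD library was below each Card9-/- library, and replicate 4 was the highest of the lower group. Siglecg, an inhibitory sialic acid receptor, averaged 13.4 ± 2.78 CPM and 4.80 ± 2.23 CPM, a log2 fold change of -1.52 (SE 0.34). Rasgrp1, an activator of RAS, averaged 2.19 ± 0.197 CPM and 0.381 ± 0.289 CPM, a log2 fold change of -2.27 (SE 0.49). Ptprk, a receptor tyrosine phosphatase, averaged 2.95 ± 0.799 CPM and 0.900 ± 0.220 CPM (log2 fold change -1.76, SE 0.40). Fallers with few reads were Pxylp1, a xylose phosphatase of proteoglycan synthesis with counts of 1, 2, 0 and 0 in Card9-/-5xFAD, Gm13479 (log2 fold change -1.72), Gm37289 (-3.00) and 4933403L11Rik (-2.33). The pseudogene Nlrp1c-ps fell by 1.69 on the log2 scale (SE 0.36), with its ranges overlapping at replicate 4, and its reads cannot be told from those of its intact relatives where they match.

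The largest falls among genes with ranges apart included Plat, tissue plasminogen activator (log2 fold change -2.96, SE 0.68), the extracellular matrix protein Fbln1 (-2.43, SE 0.58), the TGF-β co-receptor Tgfbr3 (-2.82, SE 0.73), which overlaps Gm43422, and Teddm2 (-2.29, SE 0.57), which lies over the abundant gene Glul. Slc4a10, a bicarbonate transporter of neurons and choroid plexus, had 0 counts in all 4 Card9-/-5xFAD libraries and 13, 4, 32 and 26 counts in Card9-/-, and was at least 5.14-fold lower at the floor of 3 counts per library. Its Card9-/- level was highest in replicate 4 (8.51 CPM against 0.165 to 1.90), the library with the most choroid plexus markers, and without both replicate 4 libraries it was not called (FDR 0.116). The part of choroid plexus cells in this result was not tested.

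Tmem44 and Ednrb kept their calls under every alternative tried, and Kcne3 and Ptger3 under every alternative that could be fitted for them. Bank1 and Iqgap2 kept theirs when any 1 of the 16 libraries was left out. Mrc1 was not called when replicate 2 of Card9-/- or replicate 1, 2 or 3 of Card9-/-5xFAD was left out, with log2 fold changes between -1.52 and -1.14 over all alternatives. All 15 risers of lowest FDR, and 33 of the 60 risers named by fixed rule, kept their calls under every alternative that could be fitted for them, as did 4 of the 25 fallers named. Of these 85 calls, 44 were lost when at least 1 of the 16 libraries was left out.

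Of 38 genes listed as rising in DAM, all were tested, 26 rose (68.4%, beside 1.49% of all tested genes) and none fell, and all 38 had a fold change above 1 (median log2 fold change 1.93, beside -0.15 for all genes). This list, like the others, was chosen with earlier results of these data known, so its share is a description and not a test. The summed level of the list was 17126 to 30170 CPM in Card9-/- and 62277 to 87699 CPM in Card9-/-5xFAD. Among its members were Apoe, the lipid carrier and main genetic risk factor for late-onset AD (3147 ± 1131 CPM against 8516 ± 3135 CPM, SD, n = 4 each; log2 fold change 1.44, SE 0.33, FDR 0.0480), Trem2 (1049 ± 292 CPM against 2818 ± 995 CPM; log2 fold change 1.43, SE 0.31, FDR 0.0347) and Axl, a receptor that binds apoptotic cells (log2 fold change 2.73, SE 0.60). Axl was much higher in replicates 1 and 2 (593 and 623 CPM) than in replicates 3 and 4 (114 and 97.7 CPM) of Card9-/-5xFAD, all above the 32.7 to 71.3 CPM of Card9-/-. Trem2 was not called without replicate 2 of Card9-/- or replicate 3 of Card9-/-5xFAD, and Apoe not when any of 5 libraries was left out. The 12 members that did not pass ranged from 0.79 (Timp2) to 3.58 (Cox6a2) on the log2 scale, among them Tyrobp, the signaling partner of TREM2 (1.36, SE 0.62), B2m (1.74, SE 0.53) and the cathepsins Ctsb (0.96) and Ctsd (0.96). With the replicate block all 38 were higher, and without both replicate 4 libraries 31 were.

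Most markers of homeostatic microglia had a fold change below 1, but none passed as lower without the block. Of 40 listed and 39 tested, none fell and 1 rose, the protease inhibitor Serpine2 (921 ± 138 CPM against 1977 ± 472 CPM, SD, n = 4 each; log2 fold change 1.10, SE 0.28, FDR 0.0770), a call lost in 11 of 16 fits that left out 1 library. The median log2 fold change of the list was -0.34, and 27 members had a fold change below 1 (29 with the block). P2ry12, the purinergic receptor of resting processes, stood at -0.09 (SE 0.41), Tmem119 at -0.64 and Cx3cr1, the fractalkine receptor, at -0.42, and their ranges overlapped. With the replicate block 8 members were lower, including Tmem119 (FDR 0.0719) and the transcription factor Sall1 (log2 fold change without the block -0.65, FDR with it 0.0231), and 2 were higher.

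Among genes of lipid uptake, storage and efflux, of 38 tested, 8 rose and none fell, with a median log2 fold change of 0.13. The risers were Lpl, Fabp3, Apoe, Fabp5 (4.86, SE 0.87), Ch25h, which makes 25-hydroxycholesterol and overlaps Gm26902 (3.47 ± 1.86 CPM against 86.1 ± 41.0 CPM; 4.68, SE 0.57), Nceh1, a cholesterol ester hydrolase (2.39, SE 0.33), Acaca, the rate-limiting enzyme of fatty acid synthesis (2.51, SE 0.39), and the nuclear receptor Rxrg (2.85, SE 0.48). With the block 14 members were higher and 8 lower, the latter including the scavenger receptor Cd36 (-1.21 without the block) and the nuclear receptor Pparg (-1.34). A separate list of cholesterol and fatty acid synthesis, which did not hold Acaca, had 30 tested genes, and none was called. Its lowest p were those of Stard4 (0.95, SE 0.31) and Pmvk (0.93, SE 0.35). With the block 6 genes of this list were higher and 1 lower.

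Of 55 tested lysosomal genes, 5 rose and none fell, and the median was 0.39. These were Atp6v0d2, a subunit of the proton pump (0.404 ± 0.223 CPM against 12.6 ± 5.85 CPM; log2 fold change 5.18, SE 0.65), the α-galactosidase Gla (2.11, SE 0.36), the tetraspanin Cd63 (2.07, SE 0.36), the cholesterol-binding protein Npc2 (1.22, SE 0.28) and the protease Ctsl (1.53, SE 0.40), which overlaps Gm47123 and Gm49230. The summed level of the list was 23943 to 48382 CPM in Card9-/- and 30242 to 73047 CPM in Card9-/-5xFAD, with replicate 4 lowest in both groups. 20 members were higher and 1 lower with the block. Ctsl lost its call in 13 of the 16 fits that left out 1 library, and Npc2 in 4.

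Of 38 tested chemokines, cytokines and growth factors, 6 rose and none fell (median 0.57). Spp1, the secreted phosphoprotein osteopontin, stood at 33.6, 34.5, 53.5 and 9.49 CPM in Card9-/- and 510, 544, 871 and 127 CPM in Card9-/-5xFAD. Replicate 4 was the lowest Spp1 library in each group, and its value with the transgenes was above all values without them (log2 fold change 3.96, SE 0.65, FDR 0.00338). The other risers were Gpnmb, Igf1, Csf1, the main growth factor of macrophages (24.1 ± 13.8 CPM against 193 ± 54.8 CPM; 3.02, SE 0.50), the chemokine Ccl6 (2.53, SE 0.35) and Fgf13 (1.29). Ccl3, which attracts monocytes and T cells, was at 1.80 (SE 0.59) and did not pass. With the block 19 members were higher and 1 lower. The cytokine genes Il1b (0.23, SE 0.58) and Tnf (0.66, SE 0.51), outputs of NF-κB, were not called.

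Receptors and adaptors around CARD9 were counted in 26 tested members, of which 3 rose and none fell (median -0.33): Clec7a, Trem2 and Cd22, an inhibitory sialic acid receptor that overlaps Gm29439 (9.60 ± 1.06 CPM against 21.5 ± 8.64 CPM; log2 fold change 1.17, SE 0.30, FDR 0.0811). The Cd22 call was lost in 11 of 16 fits that left out 1 library. With the block 5 members were higher and 5 lower, the latter including the kinase Syk (FDR with the block 0.0432) and the inhibitory receptor Cd33 (0.0558). Bcl10 stood at -0.32 (SE 0.25) and Malt1 at -0.39 (SE 0.26), neither called. Of 30 tested NF-κB subunits, inflammasome genes and feedback inhibitors none was called (median -0.34), and with the block 10 were lower and 3 higher. The 2 of lowest p were Tnip3 (-1.59, SE 0.48) and Nfkbid (-0.81, SE 0.25), both inhibitors of NF-κB signaling. Of 42 tested TREM family and Alzheimer risk genes 3 rose, which were Trem2, Apoe and Treml2 (9.32 ± 2.08 CPM against 22.9 ± 2.32 CPM; log2 fold change 1.29, SE 0.27). 8 of these were higher and 6 lower with the block.

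Inhibitory and checkpoint receptors gave 5 risers among 28 tested and no faller (median 0.19). Pdcd1, which encodes PD-1, stood at 5.64, 9.72, 14.8 and 7.52 CPM in Card9-/- and 125, 111, 81.2 and 14.4 CPM in Card9-/-5xFAD. Replicate 4 with the transgenes lay below replicate 3 without them, so the groups overlapped at 1 library (log2 fold change 3.13, SE 0.62, FDR 0.0167). Cd274, which encodes PD-L1 and overlaps AC119228.1, averaged 8.47 ± 2.54 CPM and 30.2 ± 11.9 CPM (1.82, SE 0.34), and Cd200r4, an activating relative of the CD200 receptor, 3.17 ± 1.67 CPM and 43.5 ± 23.3 CPM (3.78, SE 0.57). The others were Cd22 and Cd300lf, a lipid receptor (1.21, SE 0.33, FDR 0.0982), a call lost in 11 fits without 1 library. Pdcd1, Cd274 and Cd200r4 kept their calls under every alternative. With the block 10 members were higher and 3 lower.

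Genes of antigen presentation gave a single call. None of 21 tested MHC class I genes was called, although 17 had a fold change above 1 and the median was 0.71. B2m, the light chain of class I molecules, stood at 1516, 745, 1601 and 3231 CPM in Card9-/- and 2856, 3000, 6176 and 11691 CPM in Card9-/-5xFAD. Replicate 4 was the highest B2m library of both groups, and the groups overlapped (log2 fold change 1.74, SE 0.53, FDR 0.151). H2-Q7 was at 1.79 (SE 0.53, FDR 0.140), and reads of such near-identical class I genes can be split between them. With the block 14 class I genes were higher and none lower, among them B2m (FDR with the block 0.000993) and H2-K1 (0.0121). Of 15 tested class II genes, 1 fell and none rose, Ciita, the transactivator of class II genes, which overlaps Dexi (11.1 ± 2.87 CPM against 4.24 ± 1.07 CPM; -1.40, SE 0.34, FDR 0.0575), and 5 of the 16 fits without 1 library did not call it. With the block 3 class II genes were higher and 2 lower. Of 40 tested interferon-stimulated genes 2 rose, Bst2 (1.76, SE 0.44) and Isg15 (1.93, SE 0.51), lost in 6 and 10 fits without 1 library and neither called without both replicate 4 libraries, and 14 were higher and 1 lower with the block.

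**Figure D3:**
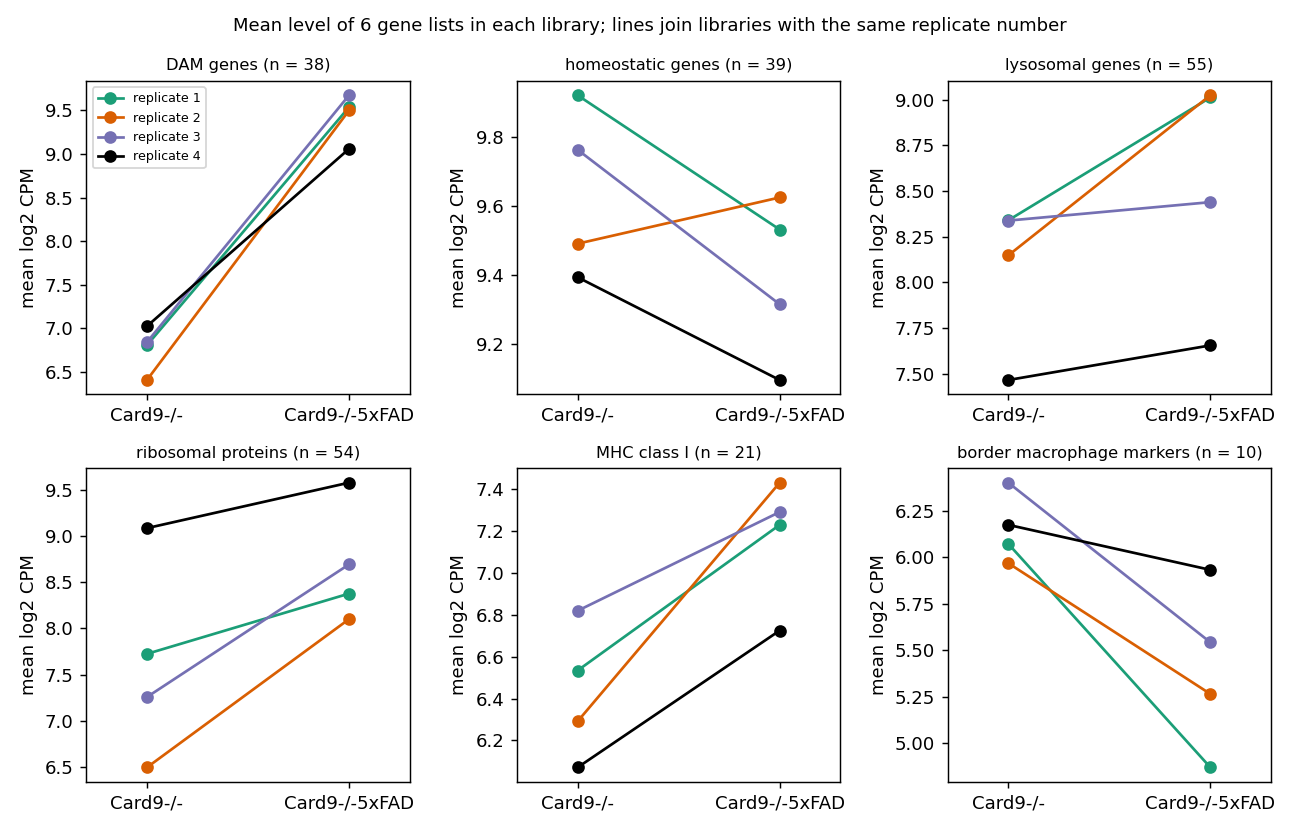
Mean log2 CPM over the tested members of 6 gene lists in each library (prior count of 2), with Card9-/- on the left of each panel and Card9-/-5xFAD on the right; lines join libraries with the same replicate number, which the labels do not tie to a shared litter or day. All 4 lines of DAM genes rise, while those of homeostatic genes run in both directions, and replicate 4 (black) starts apart from the others in the lysosomal and ribosomal panels.

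Several metabolic lists had a median above that of all genes. Cytosolic ribosomal proteins had 2 risers of 54 tested, Rpl15 (1.29, SE 0.31) and Rps6 (1.05, SE 0.27), and 53 had a fold change above 1 (median 0.91). With the block 51 were higher and none lower, and both calls were lost in some fits without 1 library, Rpl15 in 4 of 16 and Rps6 in 11. Leaving out 1 library at a time gave 0 to 27 risers and a median of 0.57 (without replicate 4 of Card9-/-5xFAD) to 1.66 (without replicate 4 of Card9-/-). Near-identical pseudogenes exist for most ribosomal proteins and can take their reads. None of 61 tested nuclear-encoded subunits of oxidative phosphorylation was called (median 0.70) and 48 were higher with the block, and of 11 tested mitochondrially encoded subunits none was called (median 0.84) and 7 were higher with it. Over the fits without 1 library the median of the nuclear-encoded subunits ran from 0.05 (without replicate 4 of Card9-/-5xFAD) to 1.85 (without replicate 4 of Card9-/-), with 0 to 8 risers, and that of the mitochondrially encoded ones from 0.43 (without replicate 2 of Card9-/-) to 1.48 (without replicate 4 of Card9-/-), with 0 to 2 risers. Over all tested genes the median log2 fold change was 0.16 over the shortest of 5 classes by exonic length and -0.27 over the longest. With the length slope of each library as a covariate the medians were 0.62 for ribosomal proteins, 0.29 for nuclear-encoded subunits and 0.53 for mitochondrially encoded ones, and 10, 3 and 1 members were higher, beside 3.56% of all genes higher and 3.3% lower in that fit. The part of transcript length in these lists was not tested.

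Of 32 tested genes of glycolysis and the hypoxia response, 2 rose and 1 fell (median 0.76). Egln3, an oxygen-sensing prolyl hydroxylase, stood at 1.92, 2.73, 1.96 and 0.654 CPM in Card9-/- and 69.1, 50.7, 32.3 and 12.01 CPM in Card9-/-5xFAD. The 4 Egln3 values with the transgenes were all above those without them, with replicate 4 lowest in each group (log2 fold change 4.40, SE 0.70, FDR 0.00251). The other riser was Hif1a, the oxygen-regulated transcription factor (101 ± 25.3 CPM against 260 ± 95.9 CPM; 1.36, SE 0.30), which overlaps Gm15283 and Gm49321. Pfkp, the platelet isoform of phosphofructokinase, fell (-1.27, SE 0.32) and overlaps Pitrm1. The calls of Hif1a and Pfkp were lost in 5 and 9 of 16 fits without 1 library. 16 genes were higher and 1 lower with the block, including Pgk1 and Tpi1. Of 33 tested genes for oxidant defense and iron handling, the ferritin heavy chain Fth1 (1.35, SE 0.34) and the lipid peroxidase Gpx4 (1.36, SE 0.34) rose, lost in 8 and 10 fits without 1 library and neither called without both replicate 4 libraries, and with the block 11 were higher and 3 lower.

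Of 40 tested cell cycle genes 4 rose and none fell (median 0.37): Cdk1, the mitotic kinase (9.06 ± 4.15 CPM against 28.9 ± 11.8 CPM; log2 fold change 1.66, SE 0.41), Birc5 (1.37, SE 0.35), Cenpe (1.35, SE 0.33) and Stmn1 (1.42, SE 0.38), which overlaps Gm23634. Each of the 4 calls was lost in 8 to 10 fits that left out 1 library. Mki67, the gene of the Ki67 antigen, was at 0.50 (SE 0.37) and not called. With the block 8 cell cycle genes were higher and none lower.

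Purinergic and G protein-coupled receptors held risers and fallers. Of 42 tested, Gpr65, a proton sensor that overlaps Gm47566 (13 ± 2.97 CPM against 40.8 ± 5.77 CPM; 1.65, SE 0.24), and the adenosine receptor Adora1 (0.996 ± 0.442 CPM against 7.25 ± 5.10 CPM; 2.97, SE 0.56), which overlaps Mybph, rose, while Ptger3, Ednrb and the ATP-gated channel P2rx1 (20.8 ± 2.78 CPM against 8.23 ± 0.463 CPM; -1.34, SE 0.32) fell. The P2rx1 call was lost in 8 of 16 fits that left out 1 library. The median of the list was -0.45, and with the block 17 were lower and 4 higher. Of 21 tested prostaglandin and leukotriene genes Ptger3 fell and none rose (median -0.33), and with the block 5 were lower and 1 higher. None of 36 tested identity transcription factors was called (median -0.34), and with the block 8 were lower and none higher, among them Etv1 (-0.94, SE 0.29) and Nfatc2 (-0.87, SE 0.33).

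Of 40 tested integrins, tetraspanins and adhesion proteins, Itgax, Cd63, the adhesion protein Cadm1 (162 ± 56.7 CPM against 502 ± 198 CPM; 1.63, SE 0.40) and Cd9 (1.59, SE 0.43), which overlaps Gm26728, rose and Itgb7, a chain of the gut-homing integrin, fell (16.5 ± 4.55 CPM against 4.86 ± 3.06 CPM; -1.72, SE 0.42), and with the block 8 were higher and 8 lower. The calls of Cadm1, Cd9 and Itgb7 were lost in 8, 13 and 6 of 16 fits without 1 library. Of 24 tested complement and Fc receptor genes, Itgax and Masp1, a complement protease (1.72, SE 0.46, a call lost in 11 such fits), rose, and with the block 7 were higher and 4 lower. Of 22 tested uptake and scavenger genes Axl rose and Mrc1 fell, and with the block 2 were higher and 10 lower. Of 22 tested genes of APP processing and Aβ breakdown, Plat and the protease Mmp9 (-1.71, SE 0.46, a call lost in 13 fits without 1 library) fell and none rose. With the block 5 of these 22 were higher and 3 lower. App, the mouse gene of the amyloid precursor protein, stood at -0.09 (SE 0.36) and was not called, and since the transgenes are human and driven in neurons its count in sorted cells does not check the labels. Of 25 tested MiT/TFE, bHLHE and lipid-sensing factors Rxrg and Hif1a rose, and with the block 3 were higher and 5 lower. No member passed among 23 Toll-like receptor genes (2 higher and 6 lower with the block), 34 immediate early genes (4 and 2), 16 heat shock genes (1 and 2) and 19 clock and PAR bZIP genes (1 and 2), where Hlf came closest (-1.22, SE 0.33, FDR 0.104). With the block the immediate early, heat shock and clock lists had 11.8%, 6.25% and 5.26% of members higher and 5.88%, 12.5% and 10.5% lower, beside 11.2% and 9.19% of all tested genes.

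**Figure D4:**
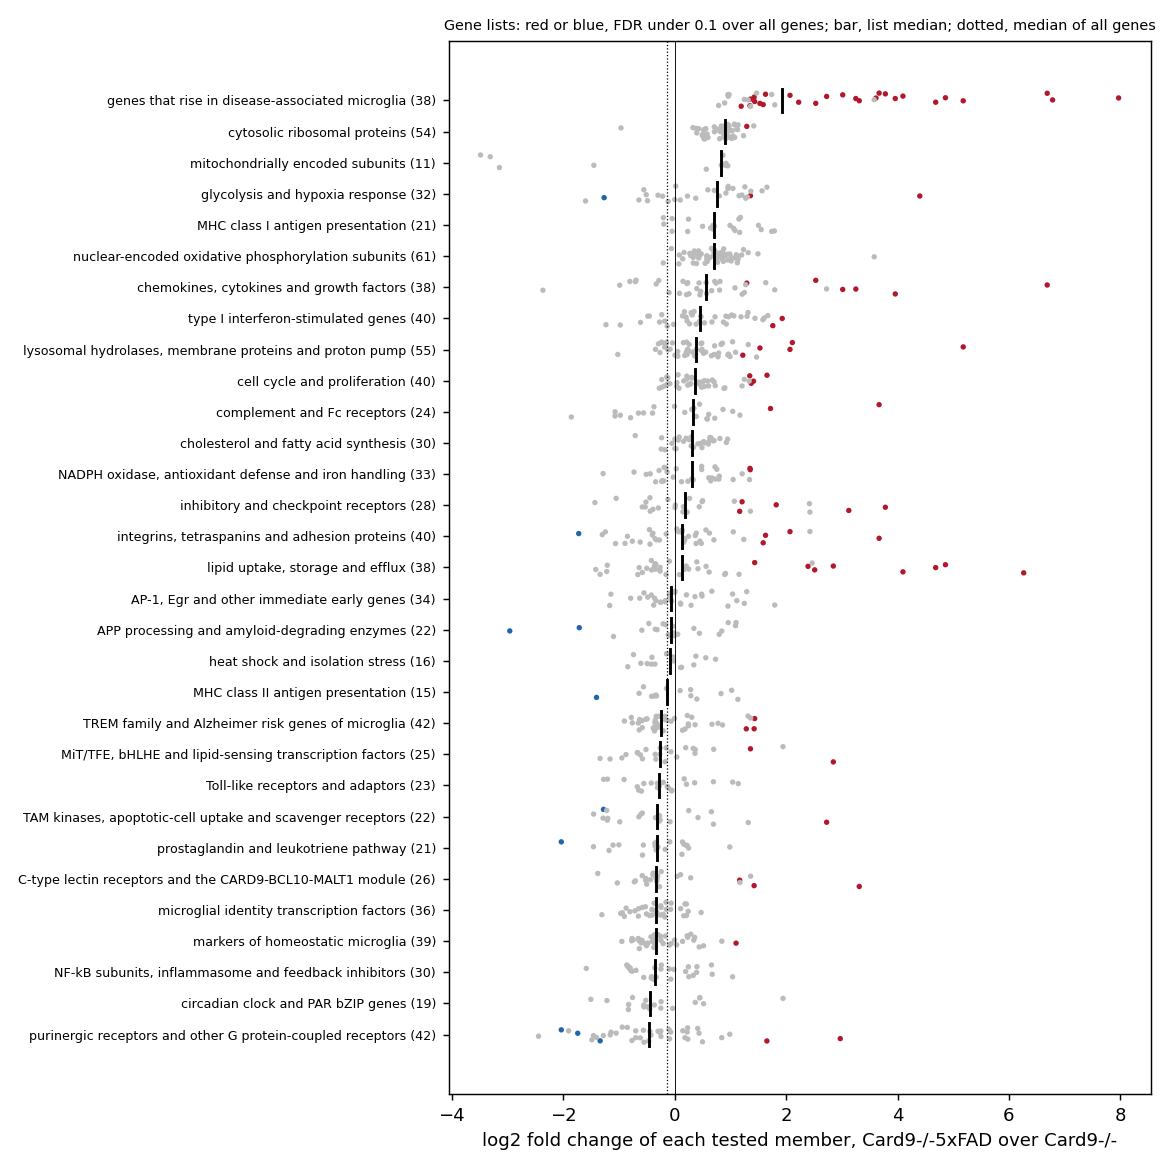
Log2 fold change (Card9-/-5xFAD over Card9-/-) of every tested member of 31 gene lists, with the number of tested members in brackets. Red and blue points passed an FDR under 0.1 over all 14513 genes, bars are list medians and the dotted line is the median of all genes (-0.15). DAM genes have the highest median (1.93), and purinergic and G protein-coupled receptors the lowest (-0.45).

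Markers of other cells that the sort could hold mostly had fold changes below 1. For some lists this rested on 1 library. Without replicate 4 of Card9-/- the median log2 fold change was 0.06 for astrocyte, 0.12 for endothelial and 1.07 for red blood cell markers. With all libraries these medians were -0.34, -0.83 and -0.20. Medians of the other such lists, except that of B cells, stayed below a fold change of 1 whichever single library was left out. In bulk RNA, fewer cells of a type and less RNA per cell cannot be told apart. All 10 markers of border-associated macrophages had a fold change below 1 (median -0.75), of which Mrc1 was called, and with the block 6 were lower. Their summed level was 1046 to 2020 CPM in Card9-/- and 451 to 1873 CPM in Card9-/-5xFAD. Monocyte markers summed to 364 to 536 CPM and 154 to 384 CPM, and none of 9 tested passed, with Ccr2 at -1.49 (SE 0.43) and F13a1 at -1.26 (SE 0.39), both lower with the block. Their part in the calls of fallers was not tested. Neutrophil markers summed to 1613 to 6530 CPM and 738 to 6288 CPM, with replicate 4 highest in both groups, and 4 of 10 were lower with the block. Of astrocyte markers Gfap rose (1.23 ± 1.43 CPM against 8.74 ± 3.92 CPM; 2.81, SE 0.69, a call lost in 6 fits without 1 library), while Gja1 was at -1.93 (SE 0.75), and the 10 tested markers summed to 209 to 384 CPM and 173 to 334 CPM. None of the tested neuron, oligodendrocyte, endothelial, mural, choroid plexus, red blood cell, B cell or T and NK cell markers passed, and the choroid plexus markers summed to 96.3 to 3049 CPM in Card9-/- and 3.35 to 1208 CPM in Card9-/-5xFAD. With the block none was higher and some were lower among oligodendrocyte (2 of 6), mural (1 of 5), T and NK cell (1 of 9) and monocyte (3 of 9) markers. These are 33.3%, 20.0%, 11.1% and 33.3%, beside 9.19% of all tested genes lower with the block. The T and NK cell share is near that of all genes, and the mural share is 1 gene. Endothelial markers had 1 higher and 1 lower of 9, and astrocyte markers 2 and 1 of 10. Neuron, choroid plexus, red blood cell and B cell markers had no call with it. None of 12 tested microglia markers passed (median 0.35), and with the block 2 were higher and 2 lower.

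The same transgene contrast was available with Card9 intact, in 8 libraries that share none with the comparison above, and 304 genes passed there (2.09%). Of the 286 genes called in the libraries labelled Card9-deficient, 285 had the same sign in 5xFAD against WT and 205 were also called, 173 of 216 risers and 32 of 70 fallers. Over all tested genes 81.4% had the same sign in both comparisons. The median log2 fold change of the 216 risers was 2.09 in both comparisons, and that of the 70 fallers was -1.70 in Card9-deficient and -1.26 in Card9-intact libraries, where values that selected the genes run larger by that selection. A test of the difference itself, the interaction of transgenes and Card9 genotype, called 0 of 14513 genes in edgeR, with 78 at an unadjusted p under 0.05 and a lowest FDR of 1.00. With the replicate block it also called 0, with 206 at an unadjusted p under 0.05, whereas DESeq2 on all 16 libraries called 1 gene, Gnb4. With no true difference, a share of 0.05 of the genes would have a p that low by chance. Both edgeR fits gave fewer, so 0 calls does not show that the responses were equal.

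Passing in one comparison and not in the other was therefore not shown to be a difference for the 81 genes called here and not with Card9 intact, none of which passed the interaction. Gnb4, a subunit of heterotrimeric G proteins, was the gene of opposite sign. It stood at 1.20, 1.08, 1.24 and 0 CPM in Card9-/- and 22.6, 17.5, 0.695 and 16.4 CPM in Card9-/-5xFAD, and averaged 1.31 ± 0.504 CPM in WT and 0.544 ± 0.238 CPM in 5xFAD (SD, n = 4 each). Replicates 1, 2 and 4 of Card9-/-5xFAD were far above every other library described, while replicate 3 was within the Card9-/- range. Its interaction was 5.12 on the log2 scale (SE 1.11, unadjusted p = 0.000284 in edgeR, FDR 1.00), with an FDR of 0.0596 when replicate 3 of Card9-/-5xFAD was left out and 0.0586 in DESeq2. Other genes among the 286 with an unadjusted interaction p under 0.05 were Slc4a10 (-7.27, SE 2.30), Sox7 (3.04, SE 1.19), Fbn2 (3.17, SE 1.27), Plat (-2.06, SE 0.89), Wnk4 (-1.62, SE 0.65) and A930002C04Rik (-2.09, SE 0.66).

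**Figure D5:**
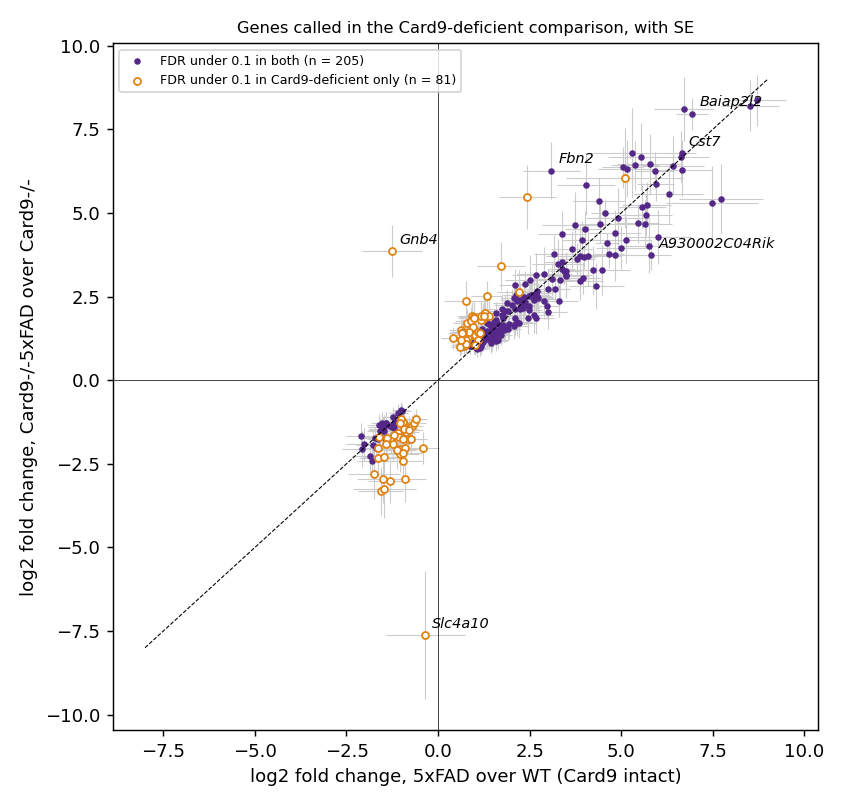
Log2 fold change with SE of the 286 called genes in 5xFAD over WT (horizontal axis) and in Card9-/-5xFAD over Card9-/- (vertical axis). Purple points passed an FDR under 0.1 in both comparisons (205 genes), open orange points in the libraries labelled Card9-deficient alone (81 genes), and the dashed line marks equal changes. Most points lie near the line, Gnb4 lies in the quadrant of opposite signs, and the fitted value of Slc4a10 is set by libraries with 0 counts.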

How the data were processed

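RNA of CD11b+ cells was sequenced in 16 libraries, 4 per genotype, as the authors described. The authors aligned reads to mm10 with HISAT2, filtered them with SAMtools and counted them per gene with HTSeq (versions, strand setting and annotation are not given in the sources used here), and deposited these counts without normalization. Depth per library is given with the results, and intervals are not needed since spread between libraries sets the precision.

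Groups follow the sample labels. Counts were tested in R 4.3.3 with edgeR 4.0.16 (quasi-likelihood fit of all 16 libraries in 4 groups, TMM, filterByExpr with a minimum count of 10, Benjamini-Hochberg FDR under 0.1 over all genes). SEs come from the fold change and its F statistic, and CPM uses TMM sizes. Folds against a group with 0 counts in every library are bounds at a floor of 3 counts per library. Gene positions are GENCODE M21 on GRCm38 (53275 of 55385 symbols matched), and upstream sequences are RefSeq's on GRCm38.p6. Members and lists were chosen with earlier results of these data known.

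Same-numbered Card9-/- and Card9-/-5xFAD libraries deviated together from their group means (correlations 0.533, 0.603, 0.128 and 0.734, numbered 1 to 4), so the replicate number was used as a block within each Card9 genotype as an alternative. The pairing comes from these deviations and not from the labels, and 2 of the 4 libraries correlated best with another number. The length covariate, the block within genotype and the fits without both replicate 4 libraries were chosen after the data were seen. Other alternatives used DESeq2 1.42.0, sva 3.50.0, other filters and thresholds, and leaving out each library. The edgeR and DESeq2 fits of all libraries, DESeq2 on the compared libraries, the block within genotype and the surrogate variable were run on simulated counts. The other alternative fits were not. For the block and the surrogate variable, the simulated counts held an effect shared by same-numbered libraries within a genotype. They therefore cannot show whether the real libraries hold such an effect. Genes named are Card9, the 15 of lowest FDR and the 10 of largest change (groups apart) in each direction, and up to 5 called members per list and direction, or the 2 of lowest p where fewer than 2 passed. Other genes named (among them Gnb4, Sox7, Fbn2, Wnk4, Fabp5, Fgf13, Cd36, Pparg, Syk, Cd33, Bcl10, Malt1, Il1b, Tnf, Mki67, P2ry12, Tmem119, Cx3cr1, H2-K1, Ctsb, Ctsd, Timp2, Pgk1, Tpi1 and App) were chosen after their values were seen. Some genes are not reported here by name.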

Additional observations from a re-analysis of the deposited data

Results flagged for a closer look

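In each group of 4 libraries, the library at either end was set against the others by Dixon's rule. This was done for Card9 and the called genes named by fixed rule, where a library of the group had at least 10 counts. The summed marker lists, the total count and the length slope were also included. These items share libraries, so their marks are not independent. The rule marked 17 of 183 groups (9.29%), where chance marks about 1 in 20 of independent groups, and 11 of the 17 were replicate 4 libraries. Replicate 4 of Card9-/-5xFAD stood low for Lpl (561 CPM against 1071 to 1090 in the other libraries of its group), Rab7b (64.5 against 145 to 159), Ch25h (24.8 against 104 to 110) and Cadm1 (209 against 575 to 640), and high for Nlrp1c-ps (20.4 against 10.7 to 12.3), red blood cell markers (68.5 against 1.28 to 10.9) and neutrophil markers (6288 against 738 to 1440). Replicate 4 of Card9-/- stood high for markers of neurons (52.0 CPM against 3.93 to 8.001), choroid plexus (3049 against 96.3 to 306), neutrophils (6530 against 1613 to 1710) and T and NK cells (116 against 64.7 to 67.5).

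Replicate 3 of Card9-/-5xFAD stood high for Trem2 (4308 CPM against 2223 to 2383), Npc2 (1699 against 1189 to 1221) and Asb11 (8.34 against 2.002 to 2.74). Replicate 1 of Card9-/-5xFAD stood low for Ednrb (5.33 CPM against 9.61 to 10.1). Replicate 1 of Card9-/- stood high for Gfap (3.36 CPM against 0.327 to 0.652) and low for monocyte markers (364 against 515 to 536).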

How the results depend on the processing

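All genes called without the block that could be tested kept their direction under every alternative tried, while the number of calls depended on the fit. Against 216 higher and 70 lower, counts were 124 and 24 under a stricter filter (a minimum of 10 counts in each library), 562 and 250 with DESeq2 on all 16 libraries (and 1 interaction gene, against 0), 88 and 8 with edgeR on the compared libraries alone, 143 and 19 at an FDR of 0.05, and 1401 and 1077 with 1 surrogate variable. With no filter 28 were lower, and with DESeq2 on the compared libraries alone 331 were higher. With the replicate block within Card9 genotype counts were 1632 and 1334, with the block on the compared libraries alone 1129 and 605, and with the replicate number as one term over all libraries 252 and 88. Without both replicate 4 libraries they were 336 and 183, and with the length covariate 516 and 479.

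Leaving out 1 library gave 105 (without replicate 2 of Card9-/-) to 466 (without replicate 4 of Card9-/-) higher genes, 8 (without replicate 1 of Card9-/-5xFAD) to 254 (without replicate 4 of Card9-/-) lower genes, and 0 to 1 interaction genes. Some genes that did not pass changed sign: over fits without 1 library, the log2 fold change of Hbb-bt ran from -1.16 to 0.34, of Hba-a1 from -2.59 to 0.92 and of Cd79a from -0.91 to 0.12, and Cd79a stood at 0.41 without both replicate 4 libraries. The causes were not tested. Depth was lowest in replicate 4 of both groups.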
